A study of Mus musculus with 24 samples.

Results

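Skeletal muscle RNA in the mouse embryonic urogenital sinus (UGS) was followed through 10 genes, Myh3, Myh8, Acta1, Ckm, Tnnt3, Tnni1, Mylpf, Myog, Myod1 and Ttn, taken as every array probe that the scanner files name for one of them. They are 10 of the 24717 genes with a probe that passed the filter on dim signal, and 23 of their 25 probes passed it. The UGS is the tube of endoderm and mesenchyme from which the prostate buds. RNA pooled from several C57/Bl6J embryos was compared on 24 two-colour Agilent arrays, each pair of pools being hybridised directly against each other and once more with the dyes exchanged. For the DHT sets (6 h, 4 pairs; 12 h, 3 pairs), the UGS of female embryos whose mothers received 50 mg/kg dihydrotestosterone (DHT, a potent androgen) at 16 days post coitum (dpc) was set against that of female embryos of vehicle-treated mothers. In 5 further pairs, untreated male embryos were set against female littermates at 17.5 dpc, a comparison that the labels count as 48 h. The labels name no mutation in any pool, and accessory ducts had been dissected away. Nothing states that the pairs came from separate litters, so p-values measure only the spread between these pools. The pairs of each comparison were hybridised on a day of their own, so that age and comparison cannot be told apart from that day.

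Skeletal muscle fibres are built by the fusion of myoblasts. Myod1 encodes the transcription factor that commits cells to the myogenic fate, and Myog (myogenin) the related factor that drives their differentiation, both by binding DNA at E-boxes, CANNTG. Differentiating fibres then fill with sarcomeres, in which thick filaments of myosin slide along thin filaments of actin under control of the troponin complex. Myh3 and Myh8 encode the embryonic and perinatal myosin heavy chains, Mylpf the fast regulatory myosin light chain, Acta1 skeletal alpha-actin, Tnnt3 fast skeletal troponin T, Tnni1 slow skeletal troponin I, Ttn the giant elastic protein titin, and Ckm the muscle creatine kinase that buffers ATP. The striated muscle of the urethral sphincter and pelvic floor lies around or next to the UGS. In RNA from whole tissue, fewer muscle cells and less muscle RNA per cell cannot be told apart.

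Promoters are shown for Myog, for the myosin genes Myh3, Myh8 and Mylpf, which varied most between pairs of pools, and for Acta1 of the thin filament. RefSeq's promoter table (GRCm38.p6) had an entry for 8 of the 10 genes. The 250 bases upstream of the start site follow, 5′ to 3′ on the gene's strand, with CANNTG E-boxes in capitals. Capitals also mark the MEF2 motif of Myh8 (TTATTTATAG) and the CArG box of Acta1 (CCAAATATGG), motifs recognised by the factors MEF2 and SRF.
Myog (chr1:134289754-134290003, plus strand): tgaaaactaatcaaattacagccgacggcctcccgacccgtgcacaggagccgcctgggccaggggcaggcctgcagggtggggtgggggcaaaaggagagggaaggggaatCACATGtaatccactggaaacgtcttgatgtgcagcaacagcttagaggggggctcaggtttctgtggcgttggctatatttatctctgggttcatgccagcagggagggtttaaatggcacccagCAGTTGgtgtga
Myh3 (chr11:67078050-67078299, plus strand): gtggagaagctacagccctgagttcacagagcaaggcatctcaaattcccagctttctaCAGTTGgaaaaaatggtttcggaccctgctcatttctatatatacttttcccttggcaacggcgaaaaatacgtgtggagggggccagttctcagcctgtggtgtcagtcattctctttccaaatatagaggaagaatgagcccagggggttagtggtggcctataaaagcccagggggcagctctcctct
Myh8 (chr11:67276874-67277123, plus strand): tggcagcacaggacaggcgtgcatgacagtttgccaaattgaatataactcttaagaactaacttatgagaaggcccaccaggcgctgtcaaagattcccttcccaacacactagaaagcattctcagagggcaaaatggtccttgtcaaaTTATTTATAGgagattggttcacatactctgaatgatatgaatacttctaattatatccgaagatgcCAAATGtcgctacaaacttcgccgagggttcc
Mylpf (chr7:127211358-127211607, plus strand): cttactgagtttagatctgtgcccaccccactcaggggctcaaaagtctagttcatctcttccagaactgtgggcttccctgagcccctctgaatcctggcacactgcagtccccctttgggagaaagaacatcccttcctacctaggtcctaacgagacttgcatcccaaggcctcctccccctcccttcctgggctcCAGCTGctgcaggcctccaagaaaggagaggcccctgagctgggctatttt
Acta1 (chr8:123894776-123895025, minus strand): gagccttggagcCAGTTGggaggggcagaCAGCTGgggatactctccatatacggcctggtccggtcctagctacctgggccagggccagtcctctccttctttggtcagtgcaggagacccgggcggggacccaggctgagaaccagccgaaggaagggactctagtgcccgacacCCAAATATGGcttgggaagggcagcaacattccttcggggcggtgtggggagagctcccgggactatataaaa

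CANNTG was searched on both strands and lay in the window of all 8 genes with an entry, and in 66.2% of 32851 promoter windows of the same length. The narrower form CAGCTG, which CANNTG includes, lay in 4 of the 8 and in 13% of all windows. The MEF2 motif was searched as YTAWWWWTAR, where Y is C or T, W is A or T, and R is A or G. In this form it lay in 2 of the 8, Myh8 and Ttn, against 2.92% of all windows. The stretch ctatatttat of Myog, which ends in T, was not counted. The CArG box lay in Acta1 alone, against 1.47%. In Myog the E-boxes began 138 and 12 bases before the start. These matches describe letters and are not sites of binding.

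All 10 brightest probes were well above background in at least 1 channel on 24 of 24 arrays, and none was saturated on any array. Ckm was not well above background in 1 of 8 vehicle channels at 6 h and 1 of 6 DHT channels at 12 h. The median spot signal of an array was 102.3 to 151.1 in Cy3 and 98.14 to 146.2 in Cy5. One check touched the labels of the 6 h set: the Y-linked gene Eif2s3y had a log2 signal of 8.65, 7.64 and 7.8 in the vehicle pools labelled female of pairs 2, 3 and 4, against 6.02 in that of pair 1 and 8.51 to 9.01 in the male pools. The libraries labelled female vehicle in those 3 pairs therefore went against their label, and 6 h ratios of the 10 genes are given for each pair, so that pair 1 can be read alone. The part of male RNA in the 6 h ratios was not tested.

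Muscle gene signal differed widely between the sets of pools. Values below are log2 signals per pool after normalisation, 1 probe per gene, and they compare pools for a gene and not genes with each other. Myh3 lay between 7.99 and 9.88 in the 14 pools of the 6 h and 12 h sets and between 11.47 and 13.39 in the 10 pools at 17.5 dpc, a difference of means of 2.97. For Myh8 the same difference was 2.47, for Mylpf 2.01 and for Acta1 2.00. Those of Tnni1, Myog and Tnnt3 were 1.93, 1.42 and 1.3. In these 7 genes every pool at 17.5 dpc was above every pool of the DHT sets, which held for 7.14% of all probes. Myod1, Ckm and Ttn differed by 0.57, 0.44 and 0.25, with overlapping pools. The median difference of all probes was −0.01. No test is given, since the sets differ in age and hybridisation day.

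**Figure D1:**
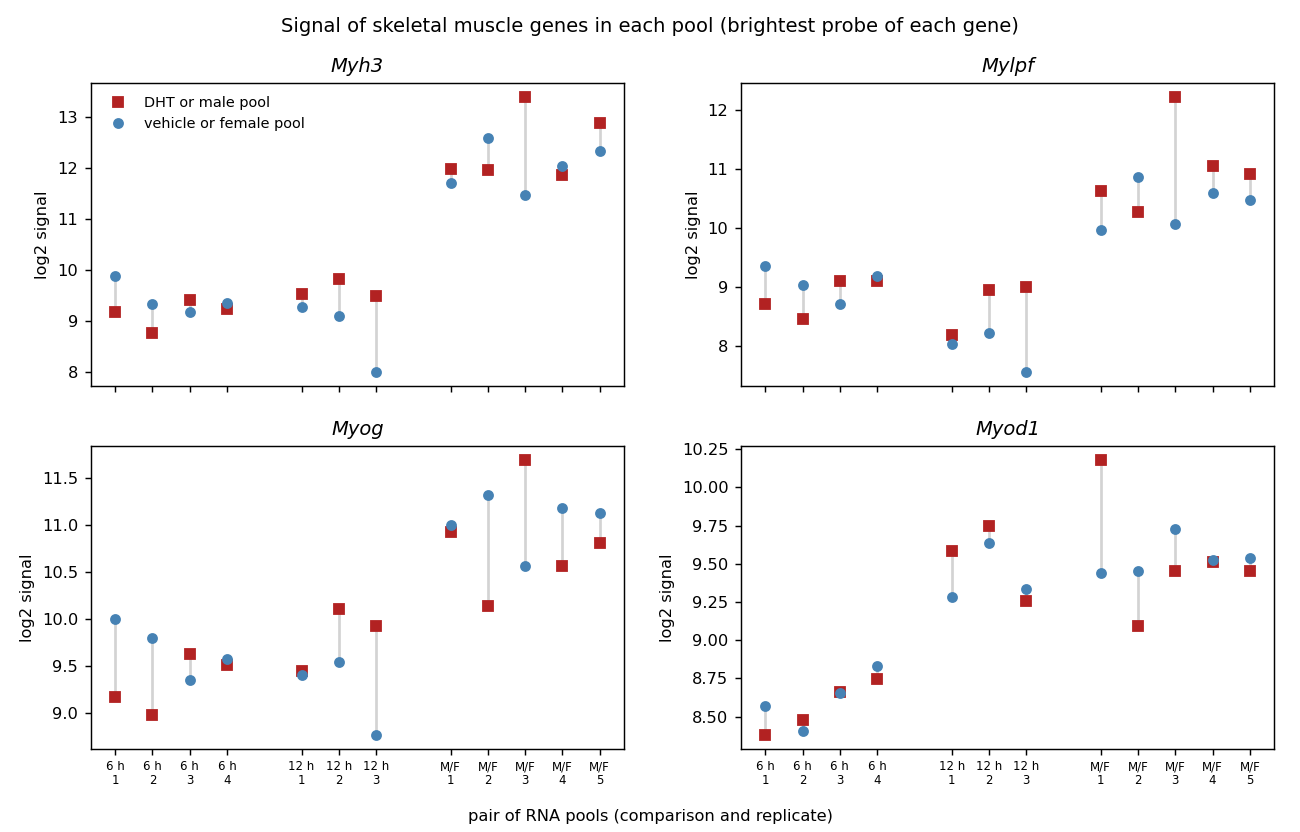
Log2 signal (vertical axis) of Myh3, Mylpf, Myog and Myod1 in each pool, by comparison and replicate (horizontal axis; M/F is male against female). Red squares are DHT or male pools, blue circles vehicle or female pools, and grey lines join the partners of a pair. Myh3, Mylpf and Myog are higher in all pools at 17.5 dpc, whereas Myod1 pools of the 12 h set lie among them.

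Myod1 had its own order. Its log2 signal was 8.38, 8.48, 8.66 and 8.75 in the DHT pools at 6 h and 8.57, 8.41, 8.66 and 8.83 in their vehicle partners. At 12 h it was 9.58, 9.75 and 9.26 with DHT and 9.29, 9.64 and 9.33 with vehicle. The 12 h pools of Myod1 were all above the 6 h pools, as were those of 17.1% of all probes and of no other member. Its male pools at 17.5 dpc (10.18, 9.10, 9.45, 9.51 and 9.45) and female pools (9.44, 9.46, 9.73, 9.53 and 9.54) overlapped with those at 12 h.

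The comparisons that the arrays were built for are the ratios within pairs, and these are log2 ratios of DHT over vehicle or of male over female. Myog, the differentiation factor, had ratios of −0.83, −0.82, 0.27 and −0.07 in the 4 pairs at 6 h. At 12 h they were 0.05, 0.57 and 1.16, and between the sexes −0.08, −1.18, 1.13, −0.63 and −0.32. Both signs occurred in 2 of the 3 comparisons. The means were −0.36 ± 0.55 (SD, n = 4), 0.59 ± 0.56 (SD, n = 3) and −0.22 ± 0.86 (SD, n = 5), with adjusted p = 0.72, 0.451 and 0.816 in the limma fit over all probes. Myod1, the commitment factor, had ratios of −0.19, 0.07, 0.00 and −0.08 at 6 h. Its 12 h ratios were 0.30, 0.11 and −0.08, and its male over female ratios 0.74, −0.36, −0.27, −0.02 and −0.09. Its highest ratio was in male-female pair 1, where only 1 of the 2 arrays gave a value.

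Among the myosins, Myh3 had ratios of −0.71, −0.56, 0.23 and −0.13 at 6 h, 0.25, 0.74 and 1.5 at 12 h, and 0.25, −0.63, 1.91, −0.17 and 0.55 between the sexes. It was higher with DHT in 3 of 3 pairs at 12 h, by 0.83 ± 0.63 (SD, n = 3) on average, a 1.78-fold ratio, and did not pass the test (limma adjusted p = 0.295). The values of Myh3 in 6 h pair 1 and male-female pair 1 rest on 1 array. Mylpf followed with −0.65, −0.57, 0.40 and −0.08 at 6 h, 0.14, 0.72 and 1.45 at 12 h, and 0.67, −0.59, 2.16, 0.46 and 0.45 in males over females. Its mean ratio between the sexes was 0.63 ± 0.99 (SD, n = 5), higher in males in 4 of 5 pairs, with a limma adjusted p of 0.296. Male-female pair 3 stood out, with 4.46-fold more Mylpf signal in the male pool, and without it the mean was 0.25. The male over female mean of Myh3 fell likewise from 0.38 to 0.00 without that pair. At 12 h, leaving out pair 3 took the mean of Myh3 from 0.83 to 0.49 and that of Mylpf from 0.77 to 0.43.

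Myh8 had ratios of −0.47, −0.28, 0.17 and 0.06 at 6 h, −0.01, 0.46 and 1.06 at 12 h, and 0.34, −0.37, 2.14, −0.17 and 0.71 between the sexes. These come from 1 of 5 probes named Myh8, which targets the perinatal myosin sequence. The other probes were dim, with a mean log2 brightness of 5.90 to 6.24 against 9.28, and 1 of them did not pass the filter. The deviations of the 3 dim probes that passed correlated with the mean of the 10 genes at r = −0.03 to 0.29 over 12 pairs, against 0.98 for the bright one. In the male-female files 4 of the 5 carry an older RIKEN clone name in place of Myh8.

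The thin filament genes moved in the same pairs. Tnni1 had ratios of −0.47, −0.44, 0.28 and 0.05 at 6 h, −0.06, 0.43 and 0.91 at 12 h, and 0.15, −0.61, 1.67, 0.21 and 0.12 between the sexes. Tnnt3 had −0.34, −0.25, 0.10 and −0.01, then −0.23, 0.13 and 0.52, and between the sexes 0.31, −0.26, 1.78, 0.18 and 0.42. Acta1 had −0.39, −0.08, 0.02 and 0.11, then −0.23, 0.15 and 0.10, and 0.22, −0.07, 1.28, −0.09 and 0.21. The highest ratio of each of these 3 genes was in male-female pair 3, and each of them had both signs among the pairs of every comparison.

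Ckm, the energy-buffering enzyme, stayed within −0.03 to 0.03 in the 4 pairs at 6 h. Its ratios at 12 h were −0.24, −0.16 and −0.08, and between the sexes −0.15, −0.04, 0.82, −0.06 and 0.07. Ckm was thus lower with DHT in 3 of 3 pairs at 12 h, where Myh3, Mylpf and Myog were higher in 3 of 3, and none of the 4 passed the test. Of all probes, 16.3% were above 0 and 19.3% below 0 in 3 of 3 pairs at 12 h. For titin, 8 of 9 probes passed the filter and they disagreed in size. The brightest had ratios of −0.06, −0.20, 0.17 and 0.00 at 6 h, 0.07, 0.08 and 0.03 at 12 h, and −0.01, −0.10, 0.46, −0.01 and 0.10 between the sexes. In male-female pair 3 the titin probes ranged from 0.08 to 1.38. The deviations of the 8 correlated with the mean of the 10 genes at r = 0.33 to 0.92.

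**Figure D2:**
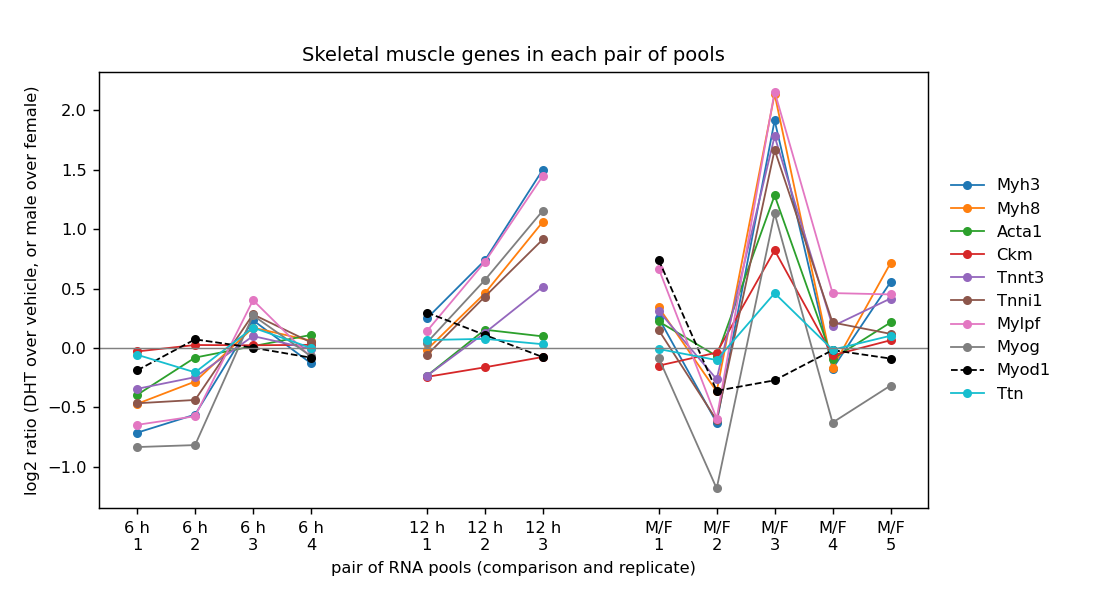
Log2 ratio (vertical axis; DHT over vehicle at 6 h and 12 h, male over female for M/F) of the brightest probe of each gene in each of the 12 pairs of pools (horizontal axis). Lines join pairs of a comparison only to guide the eye, since replicates have no order. Male-female pair 3 holds ratios up to 2.16, and Myod1, dashed, runs apart from the others.

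No member probe passed the test in any of the 3 comparisons. At 6 h, 0 of 23 probes were called at an adjusted p under 0.05, where 1.69% of all 35477 probes were, and 0 of 23 had an unadjusted p under 0.05, against 13.6% of all probes. At 12 h, 0 of 23 were called (0.276% of all probes), and 3 had an unadjusted p under 0.05 (15% of all probes): both Myh3 probes, higher with DHT as 6.26% of all probes were, and a dim Myh8 probe, lower as 8.75% were. Between the sexes, 0 of 23 were called (6.19% of all probes), and 2 had an unadjusted p under 0.05 (16.5% of all probes), Mylpf and 1 of the Tnnt3 probes, both higher in males, as 7.89% of all probes were. The lowest adjusted p of any member probe was 0.72, 0.129 and 0.243 in the 3 comparisons. Median log2 ratios over the 23 probes were −0.05, 0.11 and 0.09, against medians of all probes that were 0.00 in each. These values do not show that the ratios were 0: the SE of Myh3 was 0.31, 0.36 and 0.28 in the 3 comparisons.

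The differences between comparisons were tested in the same fit. For 12 h minus 6 h, 0 of 23 member probes passed (0.259% of all probes) and 3 had an unadjusted p under 0.05 (14.8%). For male-female minus 6 h the counts were 0 and 0, against 5.67% and 17.7% of all probes, and for male-female minus 12 h they were 0 and 1, against 1.33% and 15.4%. Myh3 had a difference of 1.12 between 12 h and 6 h, with a limma adjusted p of 0.293.

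These genes varied widely between pairs of the same comparison. The SD of the log2 ratio between pairs, within comparisons, was 0.78 for Mylpf, 0.75 for Myh3, 0.73 for Myh8 and 0.71 for Myog. It was 0.64 for Tnni1, 0.56 for Tnnt3 and 0.41 for Acta1, and 0.31, 0.27 and 0.17 for Myod1, Ckm and Ttn. The median of all probes was 0.10. Of the 10 genes, 7 lay above the 99th percentile of all probes, and Ttn, the lowest, lay at percentile 89.0. Over all 23 probes, 12 lay above it.

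**Figure D3:**
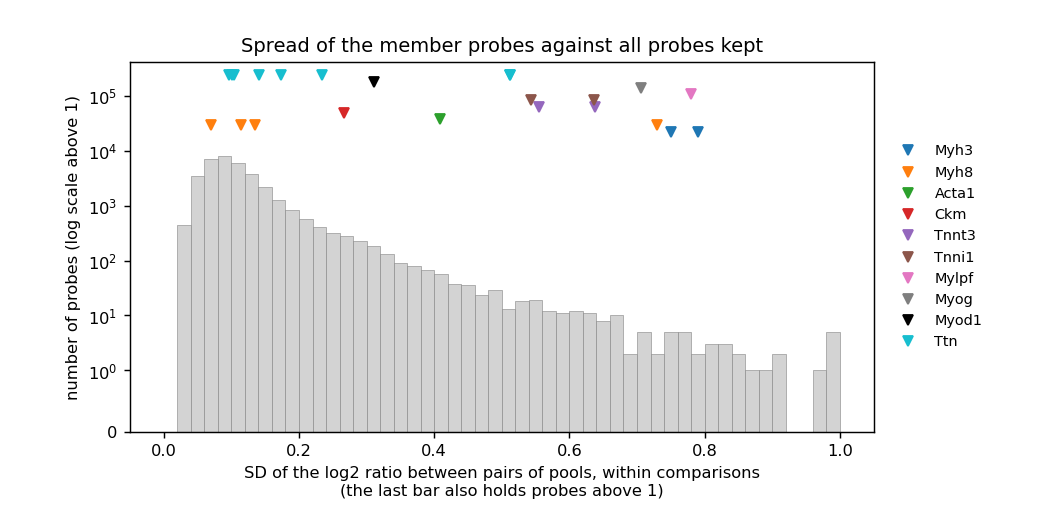
Number of probes (vertical axis, log scale above 1) by SD of the log2 ratio between pairs of pools (horizontal axis), for all 35477 probes kept. Triangles mark the member probes, coloured by gene, with heights that carry no value. Of the 23 triangles, 12 lie beyond 0.395, the 99th percentile of all probes, with 2 of titin on top of each other.

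The differences between pairs recurred on both arrays of a pair. Over the pairs, the 2 dye-exchanged arrays gave ratios that correlated at r = 0.995 for Myog, 0.994 for Myh3 (10 pairs) and 0.988 for Mylpf. The lowest were 0.777 for Myod1 (11 pairs) and 0.417 for Ttn, and the median over all probes was 0.19. The SD between pairs was set against a dye-exchange SD, taken from the difference of a pair's 2 arrays. This second SD also holds any steady offset between the dye orientations, which the mean of the 2 arrays cancels. It can therefore exceed the error of that mean, and is not a measure of array noise alone. In all 10 genes the SD between pairs was larger, by 1.7 times (Ttn) to 14.8 times (Myog). It was the larger one in 40.6% of all probes. The 2 arrays share their RNA, so this compares pools and not embryos.

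The mean log2 ratio of the 10 genes gives each pair in 1 value. It was −0.41, −0.31, 0.17 and −0.01 at 6 h, 0.00, 0.32 and 0.66 at 12 h, and 0.25, −0.42, 1.31, −0.03 and 0.22 between the sexes. In 6 h pair 1 and male-female pair 2, 0 of 10 genes were above 0, and in 6 h pair 3, 10 of 10 were. In male-female pair 3, 9 of 10 were above 0, with Myod1 the exception. The 2 pools of a pair did not contribute alike: the mean log2 signal of the 10 genes was 10.65 in the male pool of pair 3, against 9.43 to 9.88 in the other male pools and 9.34 to 9.85 in the female pools. At 12 h the vehicle pool of pair 3 was the lowest of its set, at 7.78. Of the 10 genes, 8 had their highest ratio in male-female pair 3, as had 11.6% of all probes.

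The 9 genes other than Myod1 moved together between pairs once the mean of each comparison was taken out. Correlations were taken over the 12 pairs on deviations from the mean of each comparison, so that the comparisons themselves do not enter. The 36 correlations among the 9 genes were 0.744 to 0.989, with a median of 0.906, and 36 of 36 were above 0.7. Spearman's rho had a median of 0.832. Myod1 correlated with the 9 at r = −0.467 to −0.041. On the log2 ratios themselves, the 36 among the 9 genes were 0.375 to 0.979, with a median of 0.847, and rho went down to −0.119. Without male-female pair 3 and 12 h pair 3, these r were −0.37 to 0.946, with a median of 0.73, and 20 of 36 were above 0.7. Ckm held least: the r of its log2 ratios with the mean of the other 9 genes was 0.628, and −0.28 without those 2 pairs. The points share pools and arrays, and the values are a description.

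**Figure D4:**
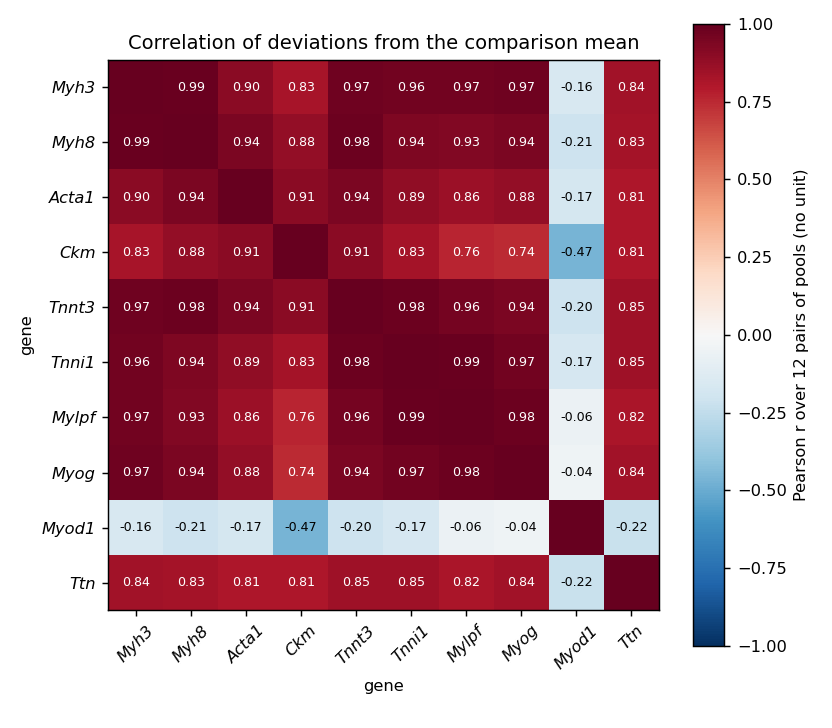
Pearson correlation (colour and printed value, no unit) between the deviations of each pair of genes over 12 pairs of pools, with both axes listing the genes. All squares outside the Myod1 row and column are at 0.74 or above, and those of Myod1 lie below 0.

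Male-female pairs 3 and 2 carried much of the correlation in deviations. Without those 2 pairs, which lay farthest from the median, the median of the 36 fell from 0.906 to 0.735, with a range of 0.344 to 0.975, and 19 of 36 stayed above 0.7. Against the mean of the other 9 genes, Tnnt3, Myh3, Myog, Tnni1 and Mylpf correlated at 0.973 to 0.984 over all 12 pairs. Without the 2 pairs, Myog and Myh3 were at 0.969 and 0.958, whereas Ttn and Ckm fell from 0.849 and 0.824 to 0.513 and 0.463. Probes also differed in how far they moved for a given shift of the other genes. The slope was 1.69 for Mylpf, 1.63 for Myh3 and 1.5 for Myog, against 0.76 for Acta1, 0.43 for Ckm and 0.28 for Ttn. Ckm and Ttn had the dimmest probes, with a mean log2 brightness of 6.49 and 7.24, though Tnnt3, at 7.36, had a slope of 1.16. A dimmer titin probe had an SD of 0.51 between pairs, against 0.17 for the one used. The part of dim signal and probe choice in the slopes was not tested.

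Myog and the myosin genes had opposite signs in some male-female pairs. In pair 5, Myh8 was at 0.71, Myh3 at 0.55 and Mylpf at 0.45 while Myog was at −0.32. In pair 4, Mylpf was at 0.46 and Myog at −0.63, with Myh3 and Myh8 both at −0.17 and so below 0 like Myog. Myog was lower in the male pool in 4 of 5 pairs and Mylpf higher in 4 of 5, and neither mean passed the test.

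Other genes were ranked by likeness to the mean of the 10, as the Pearson correlation of deviations over 12 pairs among 17992 genes. The 10 closest were Cdh15 (M-cadherin of myogenic cells), Tnni2, Myh7, Tbx1, Mybph, Tnnc1, Cav3 (muscle caveolin), Tnnt1, Chrna1 (an acetylcholine receptor subunit of the nerve-muscle junction) and Tbx15, with r from 0.986 to 0.995. Of these, 7 are in the lists of other skeletal muscle genes. In male-female pair 3 their log2 ratios were 1.12 (Tbx1) to 2.08 (Myh7). Above r = 0.9 lay 106 genes, 36 of them in those lists.

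The wider muscle programme was covered by 4 lists with 83 of 87 genes passing the filter, and 0 of 83 were called in any comparison, where 1.69%, 0.276% and 6.19% of all probes were. At an unadjusted p under 0.05 there were 1, 8 and 10 at 6 h, 12 h and between the sexes, against 13.6%, 15% and 16.5% of all probes. The mean of the 83 followed that of the 10 at r = 0.992 in deviations, and at 0.984 without male-female pairs 2 and 3. Of the 35 sarcomere genes, 27 had r above 0.7 with the mean of the 10. The 2 with the largest mean ratio were Tnnt1 (−0.21 ± 0.24, SD, n = 4) and Myh7 (−0.20 ± 0.39) at 6 h, where pair 1 alone gave −0.50 and −0.55. At 12 h they were Myom2, an M-band protein (0.80 ± 0.59, SD, n = 3), and Tnnc2, fast troponin C (0.74 ± 0.67), and between the sexes Tnnc2 (0.60 ± 0.93, SD, n = 5) and Myl3 (0.55 ± 0.76).

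Among 18 genes of excitation, calcium handling and the nerve-muscle junction, 11 had r above 0.7. The largest mean ratios were those of Chrng, the fetal acetylcholine receptor subunit (−0.15), and Stac3 (0.12) at 6 h, and in pair 1 alone these were −0.46 and −0.03, so that Stac3 had the opposite sign there. At 12 h, Sln, the calcium pump regulator sarcolipin, was at 0.67 and Chrng at 0.45, and between the sexes Cacna1s, the muscle calcium channel, was at 0.30 and Sln at 0.29. Of 13 enzyme and oxygen genes, 7 had r above 0.7. Their largest mean ratios were those of Fabp3 (0.25, and 0.55 in pair 1) and Pgam2 (−0.08, and −0.19 in pair 1) at 6 h, Cox6a2 (0.36) and Fbxo32 (0.20) at 12 h, and Pgam2 (0.36) and Mb, myoglobin (−0.26), between the sexes.

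The list of myogenic factors and progenitor genes, to which Myod1 and Myog belong by role, showed lower correlations gene by gene. Of its genes, 8 of 17 had r above 0.7 with the mean of the 10. The median r within the list was 0.315, against 0.831 in the sarcomere, 0.502 in the excitation and 0.441 in the enzyme list. The mean of the list still followed that of the 10 at r = 0.964, and at 0.857 without male-female pairs 2 and 3. The list varied little between pairs, with a median SD of 0.117, near the 0.10 of all probes. Its largest mean ratios were those of Mef2c (−0.31, and −0.41 in pair 1) and Cdh15 (−0.14, and −0.36 in pair 1) at 6 h. At 12 h they were Myf5, a determination factor like Myod1 (0.39 ± 0.09, SD, n = 3), and Msc (0.22). Between the sexes they were Megf10 (−0.27) and Myf6 (0.16).

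Markers of other tissues were read over the same pairs. In deviations, r with the muscle mean was above 0.7 for 7 of 26 epithelial and 2 of 17 smooth muscle genes. It was so for 1 of 9 cardiac and 1 of 17 neuronal genes, and for none in the remaining lists. The share of all genes above 0.7 is not given here. Epithelial genes, 26 of 26 passing the filter, correlated with the muscle mean at r = 0.581 and rho = 0.706 in deviations, and r = 0.788 without male-female pairs 2 and 3. Their mean log2 ratio was −0.53, −0.44, −0.08 and 0.01 at 6 h and −0.02, 0.34 and 0.59 at 12 h. In 6 h pair 3 it was below 0 while the muscle mean was 0.17. Between the sexes it was 0.10, 0.34, 0.53, 0.37 and 0.22, above 0 in male-female pair 2, where the muscle mean was −0.42. The summed linear signal of the 26 was 26300 to 32200 in DHT and 31200 to 41700 in vehicle pools at 6 h, 39700 to 66500 and 40000 to 42800 at 12 h, and 56100 to 76600 in male and 47600 to 57900 in female pools. Of the 26 epithelial genes, 0, 0 and 13 were called in the 3 comparisons, the 13 higher in males (3.11% of all probes), with 13, 13 and 16 at an unadjusted p under 0.05 (13.6%, 15% and 16.5% of all probes). The part of epithelium in the muscle ratios was not tested.

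The mean of the smooth muscle list was at r = 0.327, and 6 of 17 were lower in males (3.08% of all probes) while 1, Myocd, was lower at 6 h (1.23%), with a mean log2 ratio of −0.45, and −0.65 in pair 1. Without male-female pairs 2 and 3, r of the smooth muscle list was 0.524. The 9 cardiac genes had r = 0.215 as a list, and 0.438 without the 2 pairs. Singly, Tnnt2, which embryonic skeletal muscle also expresses, was at 0.951, Myl7 at 0.518, Nkx2-5 at 0.13 and Nppb at 0.0964, and Myh6, Nppa, Ryr2, Tnni3 and Mybpc3 at −0.757 to −0.485. Most other lists depended on the 2 pairs. The fibroblast list had r = −0.477 with them and 0.03 without, the endothelial list −0.494 and −0.08, and the neuronal list −0.656 and −0.352. For red cells the values were 0.315 and −0.388, for immune cells 0.187 and −0.127, for cartilage, bone and tendon 0.05 and 0.659, and for brown fat −0.654 and −0.09. Called genes between the sexes were 7 of 16 lower and 1 higher for fibroblasts, 5 of 13 lower for immune cells, 1 of 12 lower for endothelium, 2 of 13 each way for cartilage, bone and tendon, and 1 of 9 higher for cardiac genes. Of all probes, 3.08% were called lower and 3.11% higher between the sexes. At 6 h, 2 of 13 immune genes were called, both higher, where 1.69% of all probes were called in either direction. The mean log2 ratio of the immune list was 0.28, 0.20, 0.10 and 0.09 in the 6 h pairs. At 12 h, 1 of 13 genes of the cartilage, bone and tendon list was called higher, where 0.276% of all probes were called in either direction.

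**Figure D5:**
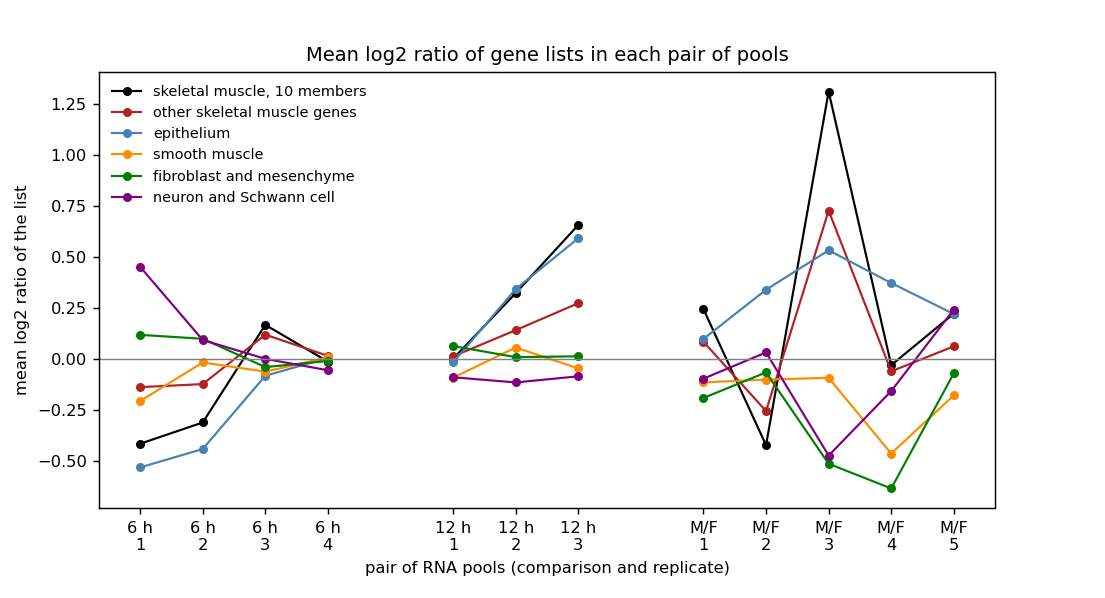
Mean log2 ratio (vertical axis) of 6 gene lists in each of the 12 pairs of pools (horizontal axis; DHT over vehicle at 6 h and 12 h, male over female for M/F), each point the mean over a list's genes. The 10 muscle genes and the other skeletal muscle genes peak in male-female pair 3 and are lowest of the male-female set in pair 2, where the epithelial mean is at 0.34.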

How the data were processed

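The authors deposited scanner output of Agilent Feature Extraction 7.5.1, per the file headers, with the intensity and local background of each spot in both channels and a log10 ratio, Cy5 over Cy3, that the software had corrected for background and dye. The deposited series matrix holds log2 ratios per probe and array, already turned to 1 direction, with column medians of −0.0112 to 0.0108. How they were centred is not given in the sources used here. Both sets of ratios served as alternatives.

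In limma 3.58.1 (R 4.3.3), intensities were background-corrected by normexp with an offset of 50 and loess-normalised array by array, with control spots at weight 0 and outlier spots set to missing. The R package data.table, version 1.17.8, read the files. Ratios were turned to DHT over vehicle or male over female, averaged over spots of a probe and then over the 2 arrays of a pair, giving 12 replicates. A probe was kept when well above background in a channel on at least 6 of 24 arrays (35477 of 41174). One limma fit with a coefficient per comparison gave two-sided moderated tests, adjusted by Benjamini-Hochberg over all probes kept, with 0.05 as the threshold. Each pair is its own block, since both pools share an array. The brightest probe stood for a gene. Levels are log2 signals after loess and Aquantile scaling. Deviations are log2 ratios minus the mean of their comparison. The fit was tested on simulated data.

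Named genes are all member probes, the 10 genes most like the member mean, and by list the 2 other muscle genes with the largest mean ratio in each comparison. Of all probes, 31512 matched a current symbol. The members and lists were chosen with earlier results of these data known. Alternatives changed background, normalisation, dye orientation, filter, probe choice, fit and block, or left out each pair.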

Additional observations from a re-analysis of the deposited data

Results flagged for a closer look

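Among 46 groups of ratios of member probes, 5 held a pair far from the others by Dixon's test at the 95% level, which chance alone does in about 1 in 20 groups. The groups are not independent, since they share pairs of pools and some are probes of the same gene. The count of 5 can therefore not be weighed against that rate. Of the 5, 4 were the same pair, male-female pair 3. There the log2 ratio of Acta1 was 1.28, with the next highest pair at 0.22, that of Ckm was 0.822 against 0.0652, that of a titin probe was 0.63 against −0.04, and that of the dimmer Tnnt3 probe was 2.05 against 0.39. The remaining one was Ckm in 6 h pair 1, at −0.029 against 0.023 in the nearest pair, a difference of small size. The 2 arrays of 6 h pair 1 gave −0.16 and 0.10 for Ckm.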

How the results depend on the processing

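Under 23 other settings that kept both dye orientations, 0 member probes were called. On arrays without dye swap, 1 was called at 6 h and 2 at 12 h, and on dye-swapped arrays 2, 1 and 1 in the 3 comparisons. The 6 h and 12 h ones were dim Myh8 probes, of which A_52_P224283 was at −0.40 at 6 h on unswapped and 0.45 on swapped arrays. The remaining one was Myod1 between the sexes, at −0.2916 on swapped arrays (limma adjusted p = 0.0179) against 0.00 with both, a change of sign. These 2 means cover different pairs: male-female pair 1 had no value on its swapped array and 0.74 on the unswapped one. Without pair 1 the mean of Myod1 with both orientations was −0.18. In pairs 2 to 5 the unswapped arrays gave −0.33, −0.04, 0.13 and −0.07, and the swapped arrays −0.39, −0.50, −0.17 and −0.10. The parts of dye orientation and of pair 1 in the change were not tested. Of 750 single gene ratios, 22 changed sign and 1 was past the threshold. Background counts moved more. At 6 h, 599 probes became 189 with an offset of 10, 271 with median centring, 50 with the scanner's ratio, 996 with the series matrix, 5395 and 4545 with unswapped and swapped arrays, 312 fitted alone and 2 with pair 1 as the only 6 h pair, a setting chosen after seeing the data. At 12 h, 98 became 8 without background correction, 28 with median centring, 0 with the series matrix (4008 at an unadjusted p under 0.05), 4864 and 1940 with unswapped and swapped arrays, 172 without a filter, 30 with signal on at least 12 arrays, 0 fitted alone (4454 unadjusted), and 3 with pair 1 as the only 6 h pair. Between the sexes, 2197 became 4085 with swapped arrays and 1017 fitted alone. Without the replicate block, treating paired pools as unpaired, the counts were 58, 4 and 1066. Leaving out each pair in turn gave 35 to 801 at 6 h, 0 to 130 at 12 h (0 without any 1 of the 3 pairs at 12 h, with 4369 to 4611 unadjusted) and 1326 to 2206 between the sexes, and 0 member probes throughout. Over the same left-out pairs, the median r of the 9 genes without Myod1 ranged from 0.7574 to 0.9353 and the median SD from 0.3596 to 0.6317, both lowest without male-female pair 3. The scanner's ratio gave a median SD of 0.75. Without that pair, male over female means became 0.13 for Myh8, 0.16 for Tnnt3, 0.07 for Acta1, −0.03 for Tnni1, −0.05 for Ckm and −0.55 for Myog. For these shifts the cause was not tested. Ckm, Ttn and the dim Myh8 probes had low signal, with a mean log2 brightness of 6.49, 7.24 and 5.90 to 6.24. The part of low signal in their ratios was not tested. The number of pairs of pools, 4, 3 and 5 in the 3 comparisons, limits the precision.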
